A study of Mus musculus with 6 samples.

Results

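The genes described here are 35 enzymes and carriers that activate fatty acids, move them into mitochondria as carnitine esters and break them down by beta-oxidation in mitochondria or peroxisomes. They were chosen as a fixed list of symbols, and 35 of 35 were found among the 27179 gene IDs in the count files. RNA-seq libraries had been made from satellite cells, which serve skeletal muscle as its stem cells and were sorted from muscle of WT C57Bl/6N mice. The diet was high-fat for 3 libraries and chow for the other 3, in a comparison of obese with lean animals. Genotype and strain background were the same in both groups, and no other agent or allele is named in the labels, which give neither the age of the mice nor the length of feeding. Per the labels, each replicate held a minimum of 50000 sorted cells, RNA had an integrity number of 8.5 to 9.4, ribosomal RNA was removed, and single reads of 75 bases were obtained. Whether replicates were separate animals is not stated, and p-values cover only the spread between the libraries at hand, which may be technical.

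Fatty acids enter oxidation as acyl-CoA, made by acyl-CoA synthetases. Long chains are passed to carnitine by a CPT1 enzyme on the outer mitochondrial membrane, carried across the inner membrane by the carrier encoded by Slc25a20 and handed back to CoA by CPT2. In the matrix each turn of the cycle runs through an acyl-CoA dehydrogenase, a hydratase, a hydroxyacyl-CoA dehydrogenase and a thiolase. Electrons leave the dehydrogenases through the electron transfer flavoprotein. Peroxisomes run a parallel cycle on very long and branched chains. Quiescent muscle stem cells are known to rely on fatty acid oxidation more than activated, dividing ones do.

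Promoter windows, here the 250 bases before and 50 bases after the annotated start, were found in RefSeq (GRCm38.p6) for 28 of the 35 genes. Their median GC content was 60.3%, against 60.7% for the promoters of all genes tested, and they held a median of 17 CpG dinucleotides, against 20. The exact peroxisome proliferator response element DR1 (AGGTCANAGGTCA, both strands, N any base) was in 0 of the 28 member promoters and in 0.0410% of promoters of genes tested. The extended site of the oestrogen-related receptors (TCAAGGTCA) was in 0 of 28, against 0.348% of promoters of genes tested. The NRF1 core (GCGCATGCGC) was in 2 of 28 (7.14%), those of Acad10 and Etfdh, against 2.21%. The nuclear receptor hexamer AGGTCA, which the 2 receptor sites above also contain, was in 3 of 28 (10.7%), those of Acadm, Acadvl and Echs1, against 14.3%. A match describes letters only, and its absence says nothing about the factor.

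Windows of 4 genes are shown. Acsl3, with the highest level per kilobase among the members, and Cpt2, with the largest fitted difference between the diets, are shown with each CpG in capitals. The Acsl3 window (chr1:78657575-78657874, + strand) had 33 CpG and 74.0% GC, against 17 CpG and 57.3% GC in the Cpt2 window (chr4:107923540-107923839, - strand). The Acadm window (chr3:153944594-153944893, - strand) is shown as the example of the AGGTCA hexamer, which is in capitals as its reverse complement. The Hadhb window (chr5:30155003-30155302, + strand) shows the head-to-head promoter of the mitochondrial trifunctional protein, whose alpha and beta subunits are encoded by Hadha and Hadhb. Its 228 bases in capitals also lie in the window of Hadha on the opposite strand, so that these members share promoter sequence.
Acsl3: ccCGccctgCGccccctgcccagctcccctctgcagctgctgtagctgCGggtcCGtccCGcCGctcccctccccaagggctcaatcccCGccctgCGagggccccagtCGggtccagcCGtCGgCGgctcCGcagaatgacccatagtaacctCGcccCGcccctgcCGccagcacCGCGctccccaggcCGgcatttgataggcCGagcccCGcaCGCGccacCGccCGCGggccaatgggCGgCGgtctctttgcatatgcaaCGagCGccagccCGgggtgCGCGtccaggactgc
Cpt2: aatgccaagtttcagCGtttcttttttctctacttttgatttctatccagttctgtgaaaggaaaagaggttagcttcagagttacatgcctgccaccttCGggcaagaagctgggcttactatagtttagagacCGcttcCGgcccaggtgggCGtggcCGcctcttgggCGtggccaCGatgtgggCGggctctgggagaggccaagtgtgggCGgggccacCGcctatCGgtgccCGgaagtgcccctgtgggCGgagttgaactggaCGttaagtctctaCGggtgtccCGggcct
Acadm: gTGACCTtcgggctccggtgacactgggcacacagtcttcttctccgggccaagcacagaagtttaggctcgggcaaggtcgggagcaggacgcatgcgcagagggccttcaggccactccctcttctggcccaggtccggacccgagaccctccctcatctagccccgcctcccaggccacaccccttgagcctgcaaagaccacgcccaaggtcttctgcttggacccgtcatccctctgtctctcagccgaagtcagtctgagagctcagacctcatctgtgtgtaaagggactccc
Hadhb: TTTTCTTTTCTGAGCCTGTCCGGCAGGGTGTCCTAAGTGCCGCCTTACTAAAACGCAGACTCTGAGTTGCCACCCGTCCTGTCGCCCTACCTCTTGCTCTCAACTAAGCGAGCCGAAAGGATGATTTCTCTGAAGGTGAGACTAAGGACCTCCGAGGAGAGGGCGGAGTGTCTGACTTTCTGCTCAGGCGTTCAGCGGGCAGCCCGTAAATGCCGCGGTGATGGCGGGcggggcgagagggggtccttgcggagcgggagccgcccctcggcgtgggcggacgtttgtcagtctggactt

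Gene counts summed to between 14930394 and 18217818 in the 3 high-fat diet libraries and to between 15977166 and 17690342 in the 3 chow libraries. The floor of 3 reads then equalled 0.165 to 0.201 CPM (reads of a gene for a library of a fixed standard size), which covers counting error only. Levels below are CPM after TMM scaling (trimmed mean of M values), which makes libraries comparable for 1 gene, and sets of 3 values stand in the order of libraries 1, 2 and 3. Genes are ranked by level per kilobase of exon. Sums, shares of a sum and read counts are not scaled by length, so longer genes weigh more in them. The 12 satellite cell markers, Pax7 among them, summed to between 4984 and 6216 CPM on the high-fat diet and to between 5662 and 6444 CPM on chow, and none of them lay below 67.3 CPM in any library. Within this sum Pax7, Fgfr4 and Itga7 alone among the 12 differed without overlap between the diets, as did 15.3% of all genes tested. None of the 12 was called. Pax7 lay at 171 to 283 CPM on the high-fat diet and 370 to 430 CPM on chow, Fgfr4 at 162 to 181 CPM on the high-fat diet and 210 to 288 CPM on chow, and Itga7 at 322 to 404 CPM on the high-fat diet and 193 to 280 CPM on chow. The part of these differences in the values below was not tested. Markers of other cells of muscle were also measured. Those of endothelium summed to 240 to 399 CPM on the high-fat diet and 272 to 364 CPM on chow. Tek was the largest part, at 105 to 216 CPM over the 6 libraries. Of these 10 markers Kdr alone did not overlap, at 23.8 to 39.3 CPM on the high-fat diet and 7.29 to 13.7 CPM on chow. Markers of fibro-adipogenic progenitors summed to 1269 to 1576 CPM on the high-fat diet and 1180 to 1410 CPM on chow. Most of this came from Col3a1, Gsn and Dpt, while Pdgfra was at most 8.28 CPM in any library. No tested marker of either list was called. The 13 myofibre markers summed to 143 to 161 CPM on the high-fat diet and 95.1 to 114 CPM on chow, without overlap. Actn3 gave most of this, at 110 to 122 CPM on the high-fat diet and 54.1 to 67.1 CPM on chow. Ckm was at most 0.44 CPM and Mb at most 1.17 CPM in any library. Of the 6 tested myofibre markers, 2 had a positive log2 fold change, and the median was -0.10. Tnnt3 lay lower on the high-fat diet, at 1.17 to 4.91 CPM, than on chow, at 6.97 to 16.6 CPM. The higher sum was thus that of Actn3, not of the list as a whole. The 10 adipocyte markers summed to 91.8 to 155 CPM on the high-fat diet and 117 to 204 CPM on chow, nearly all from Fabp4 and Lpl, while Plin1, Retn, Lep, Ucp1 and Cidea had no read in any library. In bulk RNA, fewer cells of a type and less RNA per cell cannot be told apart.

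No beta-oxidation gene passed the test between the diets. Of the 35, 32 passed the filter on low counts, and 0 of these 32 were called at a Benjamini-Hochberg adjusted p under 0.05 in edgeR's quasi-likelihood test, where 0.258% of the 13202 genes tested were called, 0.0909% higher and 0.167% lower. DESeq2 and limma-voom also called 0 of them, and the lowest adjusted p of a member in edgeR was 0.613. At an unadjusted p under 0.05, 1 of 32 members (3.12%) was found, Acsl3, against 7.65% of all genes tested. The lowest adjusted p of any member under any of the 17 alternative settings was 0.116, for Cpt2 in DESeq2.

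The diets did not overlap in 4 of the 32 members (12.5%), against 15.3% of all genes tested. Cpt2 and Acaa2 lay higher in every high-fat diet library than in any chow library, and Acsl3 and Acot2 lay lower, against 7.42% and 7.87% of all genes tested in these directions. Of the 32 members, 14 had a positive log2 fold change (43.8%), against 49.5% of all genes tested. Their median was -0.09, beside -0.01 for all genes tested, and single members ran from -2.23 for Acot1 to 4.44 for Cpt2. Without chow library 1 the members' median was 0.067, and without high-fat diet library 2 it was -0.24. These shares are close to, or below, those of the whole gene table.

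**Figure D1:**
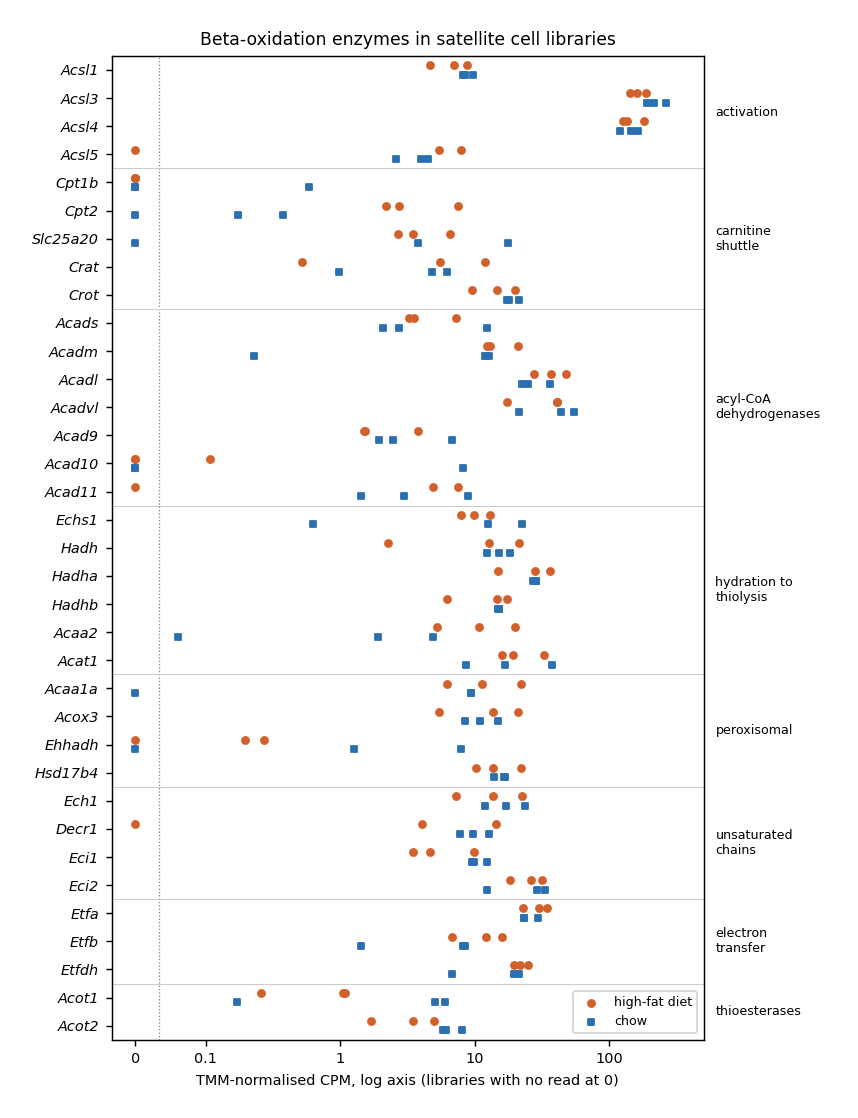
TMM-normalised CPM (log axis, libraries without a read drawn at 0) of the 35 beta-oxidation genes, one row per gene, grouped by role, with circles for the 3 high-fat diet libraries above squares for the 3 chow libraries. Most genes lie between 1 and 50 CPM with the diets interleaved, Acsl3 and Acsl4 stand above 100 CPM, and Cpt1b has reads in 1 library only.

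Summed over the 35 genes, the pathway took 737, 660 and 712 CPM in the 3 high-fat diet libraries, against 789, 696 and 767 CPM in the 3 chow libraries. The means were 703 ± 38.9 CPM on the high-fat diet and 751 ± 48.6 CPM on chow (SD, n = 3 each), and the ranges overlapped. A large part of the sum came from the acyl-CoA synthetases Acsl3 and Acsl4, which held 43.9% ± 5.04 of the members' counts on the high-fat diet and 48.7% ± 6.52 on chow. Without them the remaining 33 genes summed to 393 ± 28.9 CPM on the high-fat diet and 386 ± 59.4 CPM on chow.

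Among the activating enzymes, Acsl3, an acyl-CoA synthetase of the endoplasmic reticulum and lipid droplets, was the member with the smallest p. It lay at 185, 142 and 160 CPM in the 3 high-fat diet libraries, against 191, 213 and 262 CPM in the 3 chow libraries. The diets did not overlap, but the highest high-fat diet library and the lowest chow library were only a few CPM apart. The log2 fold change was -0.45 (SE 0.20, 95% interval -0.87 to -0.03), with an unadjusted p of 0.0375 and an adjusted p of 0.613 in edgeR. It stayed negative when any library was left out, between -0.55 and -0.31, the smallest difference being that without chow library 3. Acsl3 lies on chromosome 1 (78657825 to 78707743, + strand, GRCm38.p6), and 3.00% of the 75-base windows of its transcripts also occur in Utp14b.

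Acsl4, the synthetase that prefers arachidonic acid, averaged 147 ± 29.1 CPM on the high-fat diet and 143 ± 21.9 CPM on chow (SD, n = 3 each). Its log2 fold change was 0.04, with a 95% interval of -0.42 to 0.50, which leaves room for differences of up to about 1.4-fold either way. Acsl3 and Acsl4 were the only tested members whose interval lay within 2-fold on both sides. Acsl1, the main synthetase of fat and muscle fibres, averaged 6.81 ± 2.10 CPM on the high-fat diet and 8.77 ± 0.803 CPM on chow, a log2 fold change of -0.36 (SE 0.82). Acsl5, a mitochondrial synthetase, averaged 4.44 ± 4.03 CPM on the high-fat diet and 3.67 ± 0.985 CPM on chow, with no read in high-fat diet library 1, and a log2 fold change of 0.27 (SE 1.58).

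In the carnitine shuttle, Cpt1b, the CPT1 isoform of muscle fibres, was almost without reads. Its counts were 0, 0 and 0 in the high-fat diet libraries and 0, 10 and 0 in the 3 chow libraries. It did not pass the filter, and no fold change is given. The 10 reads cannot be assigned with certainty, since 77.1% of the 75-base windows of Cpt1b transcripts also occur in Gm44502, a transcript that overlaps it on the same strand of chromosome 15. At 0.0288 CPM per kilobase on average, Cpt1b was the lowest of the 35 members. How reads shared with Gm44502 were counted is not stated, so this level and rank may be too low.

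The CPT1 isoform found in most other tissues, Cpt1a, is no member of the list and was the abundant one here. It lay at 199, 139 and 103 CPM in the 3 high-fat diet libraries, against 90.7, 58.8 and 47.4 CPM in the 3 chow libraries. Every high-fat diet library was above every chow library. The log2 fold change was 1.16 (SE 0.30, 95% interval 0.53 to 1.80), with an unadjusted p of 0.00156 and an adjusted p of 0.187 in edgeR, so it was not called. It passed in some alternatives, DESeq2 and the fit without the filter on low counts among them, and its adjusted p ran from 0.00125 to 0.686 over the 17 alternatives. Per kilobase of exon, Cpt1a averaged 19.3 CPM on the high-fat diet and 8.59 CPM on chow, above every member of the carnitine shuttle in each diet's mean.

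Cpt2, the enzyme that returns acyl groups to CoA inside the mitochondrion, had the largest fitted difference of the members. It lay at 7.48, 2.17 and 2.75 CPM in the 3 high-fat diet libraries, against 0.377, 0.175 and 0 CPM in the 3 chow libraries. The counts behind these values were 115, 34 and 51 reads on the high-fat diet and 6, 3 and 0 reads on chow. The 9 chow reads have an exact 95% Poisson interval of 4.12 to 17.1, which covers counting error only. The log2 fold change was 4.44 (SE 2.07, 95% interval -0.00 to 8.89), with an unadjusted p of 0.0502 and an adjusted p of 0.652 in edgeR. It lay between 3.71 and 5.45 when a library was left out, and was 3.14 without both high-fat diet library 1 and chow library 3. None of the 75-base windows of Cpt2 transcripts (chromosome 4, 107903982 to 107923589, - strand) occurs in another gene. The myofibre marker sum did not overlap between the diets either, but Actn3 gave most of it. Of the 6 tested myofibre markers, 2 had a positive log2 fold change. The part of myofibre RNA in the Cpt2 values was not tested.

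Slc25a20, the carnitine-acylcarnitine carrier, averaged 4.24 ± 2.06 CPM on the high-fat diet and 7.10 ± 9.22 CPM on chow, where it ran from 0 CPM in library 3 to 17.5 CPM in library 1. Crat, which transfers acetyl groups to carnitine, averaged 5.94 ± 5.66 CPM on the high-fat diet and 3.98 ± 2.69 CPM on chow. Their log2 fold changes were -0.74 (SE 1.49) for Slc25a20 and 0.58 (SE 1.31) for Crat. Crot, which makes medium-chain carnitine esters in peroxisomes, was the most abundant of the shuttle members. It lay at 9.50, 14.7 and 19.96 CPM in the 3 high-fat diet libraries, against 17.2, 17.8 and 21.3 CPM in the 3 chow libraries. The diets overlapped, and the log2 fold change was -0.35 (SE 0.54).

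**Figure D2:**
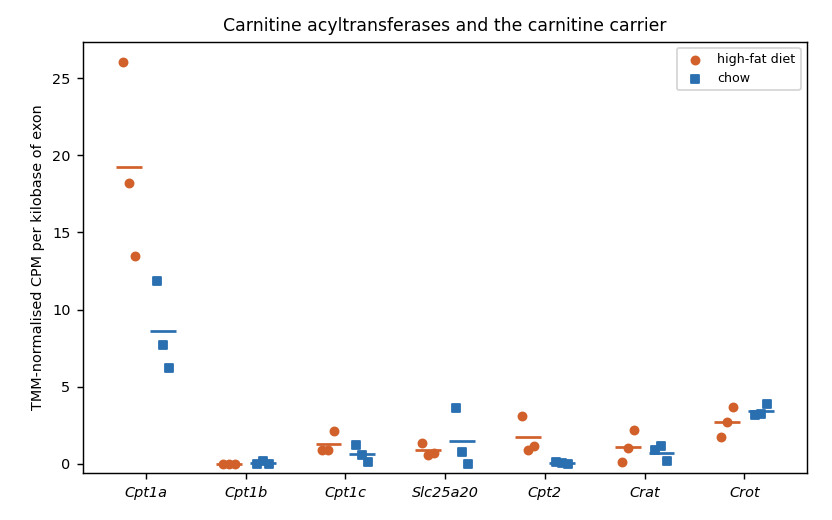
TMM-normalised CPM per kilobase of exon of the carnitine acyltransferases and the carnitine carrier in each library, with circles for the high-fat diet, squares for chow and a bar at each mean of 3. Cpt1a, averaging 19.3 on the high-fat diet and 8.59 on chow, stands above the other 6 genes in every library, and Cpt1b sits at or near 0.

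Of the 7 acyl-CoA dehydrogenases, which start each cycle, 6 were tested and none was called. Acadvl, the very-long-chain enzyme, had the most reads. It lay at 17.4, 40.4 and 41.1 CPM in the 3 high-fat diet libraries, against 54.8, 44.0 and 21.2 CPM in the 3 chow libraries. The lowest library of each diet was about as low as the other's, and the log2 fold change was -0.28 (SE 0.44). Exons of Dvl2 overlap Acadvl on the opposite strand, and 19.5% of its 75-base windows are shared with that gene. Acadl, the long-chain enzyme, averaged 37.4 ± 10.1 CPM on the high-fat diet and 27.7 ± 7.42 CPM on chow, a log2 fold change of 0.43 (SE 0.39). Acadm, the medium-chain enzyme, averaged 15.4 ± 4.81 CPM on the high-fat diet and 8.31 ± 7.01 CPM on chow. Its chow libraries 1 and 2 had 11.9 and 12.8 CPM and library 3 had 0.230 CPM. The log2 fold change of Acadm was 0.89 (SE 0.97), and 0.32 without chow library 3.

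Acads, the short-chain enzyme, averaged 4.68 ± 2.26 CPM on the high-fat diet and 5.70 ± 5.72 CPM on chow. Acad9, which also serves in the assembly of respiratory complex I, averaged 2.27 ± 1.31 CPM on the high-fat diet and 3.73 ± 2.64 CPM on chow. Acad11, which acts on long chains, averaged 4.14 ± 3.81 CPM on the high-fat diet and 4.42 ± 3.91 CPM on chow. Their log2 fold changes were -0.28 for Acads, -0.71 for Acad9 and -0.09 for Acad11, each with a standard error above 1. Acad10, a related dehydrogenase, did not pass the filter, with 0, 0 and 2 reads in the high-fat diet libraries and 0, 0 and 142 reads in the chow libraries. All but a few of its reads thus came from chow library 3, and no fold change is given.

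Of the 6 mitochondrial enzymes of hydration, second oxidation and thiolysis, all 6 were tested and none was called. Hadha, the alpha subunit of the trifunctional protein, lay at 14.96, 28.0 and 36.1 CPM in the 3 high-fat diet libraries, against 27.2, 28.5 and 28.3 CPM in the 3 chow libraries. The high-fat diet libraries fell on both sides of the tightly grouped chow libraries, and the log2 fold change was -0.09 (SE 0.43). Hadhb, the beta subunit, with which it shares the promoter shown above, averaged 12.7 ± 5.77 CPM on the high-fat diet and 14.95 ± 0.0761 CPM on chow. Within the high-fat diet, Hadha was lowest in library 1 and highest in library 3, while Hadhb was highest in library 1, at 17.3 CPM, and lowest in library 3, at 6.20 CPM.

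Acaa2, the mitochondrial thiolase of the last step, did not overlap between the diets. It lay at 19.8, 5.24 and 10.7 CPM in the 3 high-fat diet libraries, against 0.0628, 1.92 and 4.88 CPM in the 3 chow libraries. The lowest high-fat diet library was close to the highest chow library. The log2 fold change was 2.38 (SE 1.23, 95% interval -0.26 to 5.01), with an unadjusted p of 0.0735 and an adjusted p of 0.707 in edgeR. Leaving out chow library 1 gave 1.81 and leaving out chow library 3 gave 3.57. None of its 75-base windows occurs in another gene.

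Acat1, the thiolase for acetoacetyl-CoA, averaged 22.7 ± 8.97 CPM on the high-fat diet and 20.9 ± 14.9 CPM on chow (log2 fold change 0.12, SE 0.57). Echs1, the short-chain hydratase, averaged 10.2 ± 2.61 CPM on the high-fat diet and 11.8 ± 10.9 CPM on chow, where it ran from 0.632 CPM in library 3 to 22.4 CPM in library 1. Hadh, the short-chain hydroxyacyl-CoA dehydrogenase, averaged 12.1 ± 9.53 CPM on the high-fat diet and 15.3 ± 2.90 CPM on chow. Its lowest value, 2.28 CPM, was in high-fat diet library 1. The log2 fold changes were -0.21 (SE 0.94) for Echs1 and -0.33 (SE 0.74) for Hadh.

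The peroxisomal enzymes were 3 tested genes and 1 that was not. Hsd17b4, the D-bifunctional protein, lay at 22.0, 13.8 and 10.2 CPM in the 3 high-fat diet libraries, against 16.4, 14.0 and 16.7 CPM in the 3 chow libraries. The high-fat diet values surrounded those of chow, and the log2 fold change was -0.03 (SE 0.56). Acox3, an oxidase of branched chains, averaged 13.3 ± 7.66 CPM on the high-fat diet and 11.4 ± 3.19 CPM on chow (log2 fold change 0.22, SE 0.69). Acaa1a, the peroxisomal thiolase, averaged 13.2 ± 8.17 CPM on the high-fat diet and 6.21 ± 5.38 CPM on chow, where library 3 had no read (log2 fold change 1.09, SE 1.22). Of the Acaa1a windows, 12.6% are shared with other genes, chiefly its copy Acaa1b. Ehhadh, the L-bifunctional protein, did not pass the filter, with 3, 0 and 5 reads in the high-fat diet libraries and 20, 0 and 138 reads in the chow libraries.

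The auxiliary enzymes for unsaturated chains had log2 fold changes with a median of -0.50, of which 3 of 4 were negative, and none was called. This median was -0.23 without high-fat diet library 2 and -0.81 without high-fat diet library 3. Eci2, a peroxisomal and mitochondrial enoyl-CoA isomerase, lay at 26.0, 18.2 and 31.3 CPM in the 3 high-fat diet libraries, against 29.1, 12.2 and 33.4 CPM in the 3 chow libraries. Its library 2 was the lowest of each diet, and the log2 fold change was 0.01 (SE 0.48). Eci1, the mitochondrial isomerase, averaged 6.01 ± 3.44 CPM on the high-fat diet and 10.5 ± 1.56 CPM on chow (log2 fold change -0.81, SE 0.83). Decr1, the dienoyl-CoA reductase, averaged 6.13 ± 7.40 CPM on the high-fat diet and 10.1 ± 2.55 CPM on chow (log2 fold change -0.72, SE 1.27). High-fat diet library 1 held no read of Decr1, and its log2 fold change was -0.13 without that library and -2.32 without high-fat diet library 3. Ech1, the dienoyl-CoA isomerase, averaged 14.4 ± 7.54 CPM on the high-fat diet and 17.5 ± 5.91 CPM on chow (log2 fold change -0.29, SE 0.60).

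The electron transfer genes were the only role with 3 or more tested members that all had a positive log2 fold change, and none was called. Etfa, the alpha subunit of the electron transfer flavoprotein, lay at 34.1, 29.9 and 22.6 CPM in the 3 high-fat diet libraries, against 23.3, 23.2 and 29.5 CPM in the 3 chow libraries. The diets overlapped, and the log2 fold change was 0.19 (SE 0.40). Etfb, the beta subunit, averaged 11.6 ± 4.57 CPM on the high-fat diet and 6.02 ± 3.97 CPM on chow (log2 fold change 0.94, SE 0.88). Of its windows, 39.6% also occur in Gm45233, which overlaps it on the same strand. Etfdh, the oxidoreductase that hands the electrons to ubiquinone, averaged 22.0 ± 2.57 CPM on the high-fat diet and 15.9 ± 7.95 CPM on chow (log2 fold change 0.46, SE 0.55). Summed, the 3 genes lay at 69.5, 61.4 and 56.4 CPM in the 3 high-fat diet libraries, against 51.0, 38.5 and 52.3 CPM in the 3 chow libraries. These sums did not overlap, although each of the 3 genes did. They were chosen after their values were seen and were not tested. Of all single genes tested, 15.3% did not overlap between the diets.

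The acyl-CoA thioesterases Acot1, of the cytosol, and Acot2, of mitochondria, release free fatty acids from CoA and lie side by side on chromosome 12. Acot2 lay at 1.69, 4.99 and 3.45 CPM in the 3 high-fat diet libraries, against 6.15, 5.83 and 7.98 CPM in the 3 chow libraries. Every high-fat diet library was below every chow library, with a log2 fold change of -0.98 (SE 1.12) and an adjusted p of 0.967 in edgeR. Acot1 lay at 1.04, 0.256 and 1.08 CPM in the 3 high-fat diet libraries, against 5.02, 6.00 and 0.172 CPM in the 3 chow libraries. Chow library 3 was below all high-fat diet libraries while the other chow libraries were above them, and the log2 fold change was -2.23 (SE 1.84). Both genes share sequence: 20.5% of Acot2 windows occur in Acot1 and 11.2% of Acot1 windows in Acot2, so that reads could be assigned to either. In all, Acot1 shares windows with 6 genes and Acot2 with 3, and how multiply mapped reads were counted is not stated. The sum of Acot1 and Acot2 was 2.73, 5.24 and 4.53 CPM on the high-fat diet, against 11.2, 11.8 and 8.15 CPM on chow. These sums did not overlap, but they were chosen after their values were seen and were not tested. Of all single genes tested, 15.3% did not overlap between the diets. The part of shared reads in these values was not tested.

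**Figure D3:**
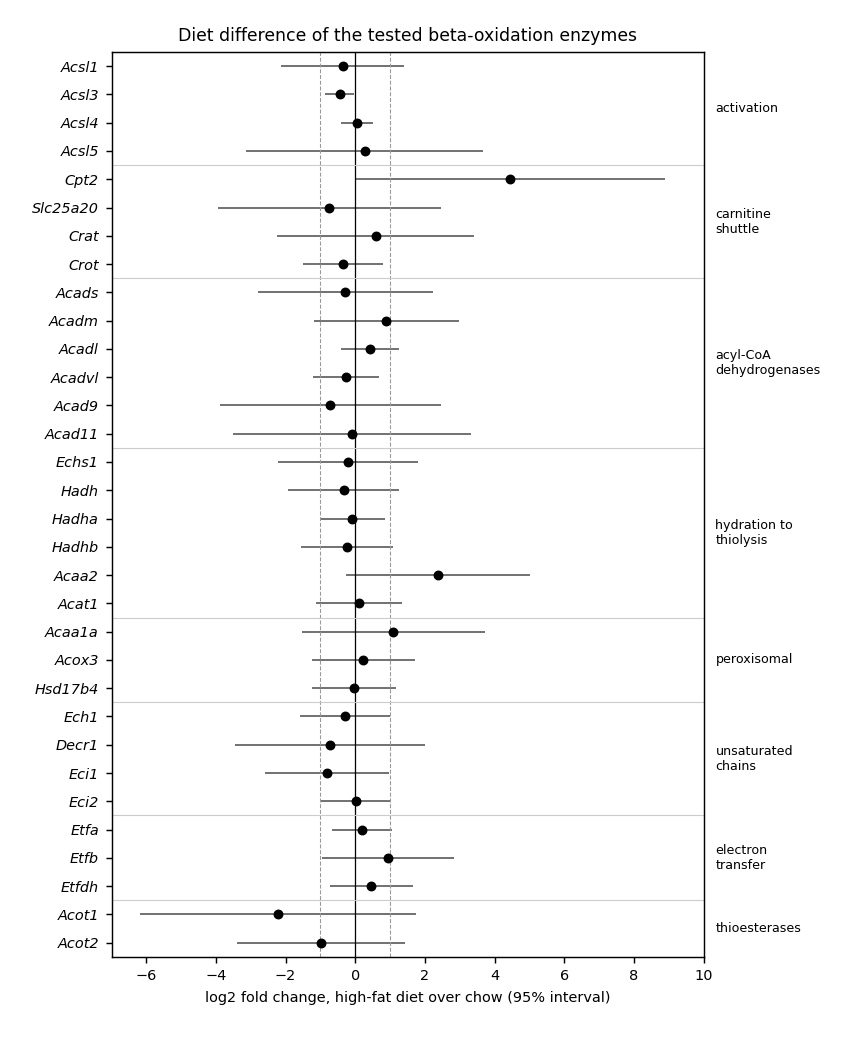
Log2 fold change, high-fat diet over chow, of the 32 tested members with 95% intervals, grouped by role; dashed lines mark 2-fold differences. The interval of Acsl3 (-0.87 to -0.03) lies below 0, and those of the other 31 members reach across it.

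Per kilobase of exon and over all 6 libraries, Acsl3 had the highest mean level of the members, at 44.1 CPM per kilobase, followed by Acsl4 at 26.9. Acadl at 16.2, Etfa at 14.8 and Acadvl at 13.6 came next, and the means of these last genes lay within the spread between libraries. Etfb, Ech1 and Acat1 followed at 7.56, 6.98 and 5.80 CPM per kilobase, and Acaa2, Hsd17b4 and Eci2 at 4.69, 4.56 and 4.52. The mean of Acaa2 was 7.86 CPM per kilobase on the high-fat diet and 1.51 on chow, a difference that was not called. Its place in this order is not that of either diet's mean. Acadl and Acadvl, the dehydrogenases for long chains, thus stood above Acadm at 3.03 and Acads at 2.29 CPM per kilobase. Cpt2, the partner of Cpt1a in the shuttle, had 1.73 CPM per kilobase on the high-fat diet and 0.0769 on chow. This order depends on the annotated exon length of each gene. Hadha (8730 bases) and Etfa (1835 bases) averaged 27.2 and 27.1 CPM, but ranked 13 and 4 per kilobase.

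Reads of single members were missing from single libraries in both diets. Among the 32 tested members, 3 had at most 3 reads in high-fat diet library 1 (Acsl5, Acad11 and Decr1) and none in high-fat diet libraries 2 and 3. In chow, 1 member was that low in library 1 (Acaa2), 1 in library 2 (Cpt2) and 4 in library 3 (Cpt2, Slc25a20, Acaa1a and Acot1). High-fat diet library 1 held the lowest value of the 6 libraries for 12 members and the highest for 8, and chow library 3 the lowest for 9 and the highest for 6. These libraries also had the fewest genes with a read in their diet, 13879 in high-fat diet library 1 and 13655 in chow library 3, against 14939 to 15467 in the other 4. With both left out, 1 of all genes tested and 0 members were called.

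**Figure D4:**
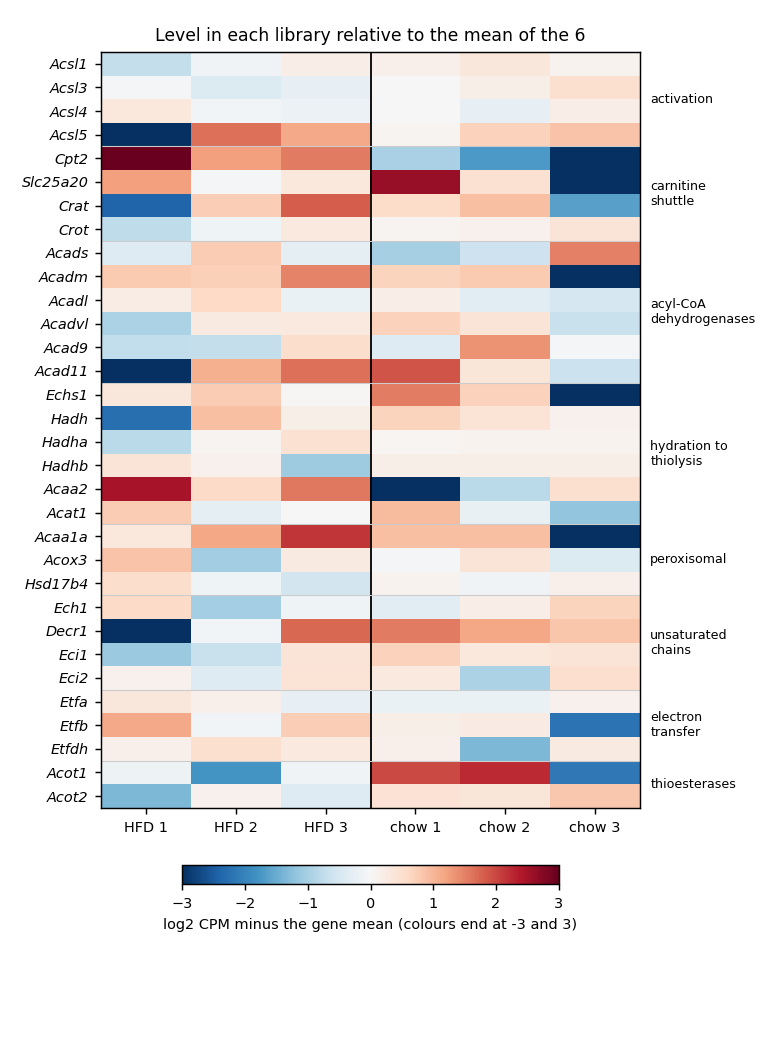
Level of each tested member in each library relative to the mean over the 6 libraries on a log2 scale, with the 3 high-fat diet libraries (HFD) left of the 3 chow libraries and genes grouped by role. High-fat diet library 1 and chow library 3 hold most of the deep low values, the lowest value of 12 and of 9 members.

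The precision of a comparison followed the level of the gene. For the 6 members under 5 CPM the 95% interval reached a median of 3.41 log2 units to either side, that is 10.6-fold. For the 18 members from 5 to 20 CPM it reached 1.83 log2 units (3.56-fold), for the 6 members from 20 to 50 CPM 0.94 (1.91-fold), and for Acsl3 and Acsl4 0.44 (1.36-fold). Only 2 of 32 members (6.25%) had an interval within 2-fold on both sides, against 20.4% of all genes tested. For the other 30 members a 2-fold difference in at least 1 direction lies within the interval. The biological coefficient of variation had a median of 71.9% over the members and 62.2% over all genes tested.

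**Figure D5:**
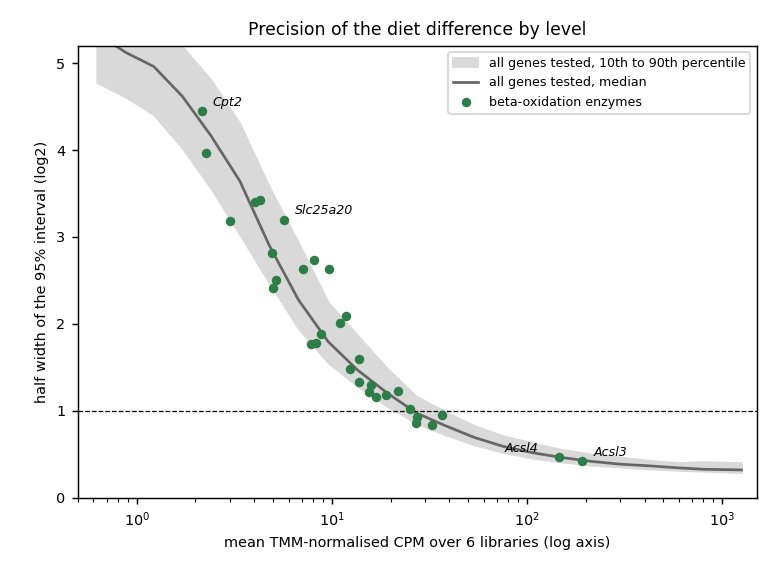
Distance from the log2 fold change to the end of its 95% interval against mean TMM-normalised CPM (log axis) for the 32 tested members (dots), with the median and the 10th to 90th percentiles of all genes tested as a line and a band; the dashed line marks a 2-fold difference. Members follow the band of all genes, from Cpt2 at the low end to Acsl3 and Acsl4 at the high end.

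Of 68 other genes of fatty acid uptake, oxidation, ketone metabolism and their regulation, 58 were tested. The list was chosen with earlier results of these data known, so its share of called genes cannot be read as an excess. Among the 58 tested, 2 were called higher, where 0.0909% of all genes tested were called higher, and 0 were called lower. Their log2 fold changes had a median of 0.02, with 30 of 58 positive. The genes called were Angptl4, a secreted inhibitor of lipoprotein lipase, and Ucp2, a mitochondrial carrier, both known targets of the peroxisome proliferator-activated receptors. Angptl4 averaged 231 ± 54.6 CPM on the high-fat diet and 28.1 ± 12.4 CPM on chow, with a log2 fold change of 3.04 (SE 0.31) and an adjusted p of 0.00197 in edgeR. Ucp2 averaged 78.1 ± 3.10 CPM on the high-fat diet and 12.8 ± 7.14 CPM on chow, with a log2 fold change of 2.61 (SE 0.42) and an adjusted p of 0.0224 in edgeR. The number called among these genes was between 1 and 2 when a library was left out, and 0 without high-fat diet library 1 and chow library 3. The diets did not overlap in 8 of the 58 (13.8%), against 15.3% of all genes tested.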

How the data were processed

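The deposited values were raw counts, 1 file per library, in whole reads for each Entrez gene, and the files show no normalization by the authors. Bowtie2, featureCounts and the builds GRCm38 and mm10 are named in the submitters' processing notes. Tool versions, the strand setting, how multiply mapped reads were counted and the annotation release are not given in the sources used here, so reads of overlapping or near-identical genes may have been split between them. Of 27179 IDs, 25275 took their symbol from RefSeq (GRCm38.p6), 18 took it from GENCODE M21 metadata, and 1886 had none. Exon lengths and shared 75-base windows came from GENCODE M21, and coordinates are those of GRCm38.p6.

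From the counts, edgeR 4.0.16 (R 4.3.3) kept 13202 genes by filterByExpr (minimum count 10) and scaled libraries by TMM. High-fat diet was compared with chow by the two-sided quasi-likelihood F test, with p-values adjusted by Benjamini-Hochberg over all genes tested and a threshold of 0.05. The standard error of a log2 fold change was its size over the square root of F. Alternatives were limma 3.58.1 (voom), DESeq2 1.42.0, other scalings and filters, robust dispersions, the replicate block, dropping mitochondrial genes and leaving out libraries. The test was checked on counts simulated from each gene's mean, its fitted dispersion and the library sizes, without effects of single libraries. In 5 runs the test called 10 unchanged genes. It recovered 9.76% of 2-fold and 36.5% of 4-fold changes. For genes over 50 CPM, among the members only Acsl3 and Acsl4, it recovered 25.4% of 2-fold and 96.4% of 4-fold changes. Total counts were 14930394 to 18217818 per library, and every pair of libraries differed by more than sampling noise.

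The members, the lists of other pathway genes and of markers, and the tests were chosen with earlier results of these data known, and no set test or p over the members was made. Per-library values were given for members with an unadjusted p under 0.05 or no overlap between the diets, for the member of each role with the most reads, and for Cpt1b. Libraries named beyond this, such as those of Acot1 and Acadm, and markers and sums given per library were chosen after their values were seen. For 1 gene that the rule would also have named, and that counts among the 68 other pathway genes, values are not reported here.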

Additional observations from a re-analysis of the deposited data

How the results depend on the processing

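The count of members called was 0 in all 17 alternatives. Of 544 member values of log2 fold change in them, 501 kept their sign and 43 did not, and the cause was not tested. Signs changed with both high-fat diet library 1 and chow library 3 left out for Acsl4 (-0.013), Acads (1.17), Acad11 (0.081), Hadh (0.042), Hadha (0.21), Acat1 (-0.61) and Acox3 (-0.42). They changed in limma-voom for Acsl5 (-1.61), Slc25a20 (1.73), Acads (0.026) and Echs1 (0.87). With the replicate block they changed for Acsl5 (-0.85), Slc25a20 (0.58), Crat (-0.0037), Acads (0.13) and Echs1 (0.63). With each library left out in turn, values ran from -0.12 to 0.15 for Acsl4, from -0.43 to 0.87 for Acsl5, from -1.33 to 1.16 for Slc25a20, from -0.40 to 1.13 for Crat, from -0.76 to 0.96 for Acads, from -0.58 to 0.038 for Acadvl, from -1.29 to 0.040 for Acad9 and from -0.84 to 0.92 for Acad11. They ran from -0.77 to 0.65 for Echs1, from -1.02 to 0.17 for Hadh, from -0.38 to 0.21 for Hadha, from -0.52 to 0.092 for Hadhb, from -0.26 to 0.84 for Acat1, from -0.24 to 0.59 for Acox3, from -0.38 to 0.19 for Hsd17b4, from -0.74 to 0.030 for Ech1 and from -0.31 to 0.28 for Eci2. The other 15 tested members kept their sign throughout, Acsl3, Cpt2, Acaa2 and Acot2 among them.

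Over all genes the number called was 163 without the filter, 279 in DESeq2, 99 in limma-voom, 1 with both libraries left out and 9 to 44 with each left out. Among the other pathway genes it was 4 in DESeq2, 0 with both left out and 1 to 2 with each left out, and their median ran from -0.20 to 0.092. The members' median was -0.19 without the filter, -0.21 in DESeq2 and -0.24 to 0.067 with each library left out. By role, the median of the activating enzymes was -0.41 in limma-voom, -0.43 with the replicate block and -0.38 to -0.082 with each left out. That of hydration, second oxidation and thiolysis was 0.086 in limma-voom, 0.059 with the block and -0.25 to 0.27 with each left out. That of the auxiliary enzymes was -0.81 to -0.23 with each left out. That of the peroxisomal enzymes was -0.33 with both left out and -0.31 to 0.31 with each left out, and that of electron transfer 0.63 in limma-voom, 0.19 with both left out and 0.13 to 0.64 with each left out. Libraries of the same number did not vary together (correlations of 0.025, 0.035 and -0.026), and with the replicate block 45 genes were called, Cpt1a included, and 0 members.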
